A study of Mus musculus with 4 samples.

Results

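The mRNAs of the MAP kinase cascade kinases were followed through a comparison of RNA precipitated with KIF5C, the heavy chain of a neuronal kinesin-1 motor, and RNA precipitated with a control antibody. The members are the genes whose symbol is Mapk, Map2k, Map3k or Map4k followed by a number, and they fall into 4 tiers by that name. The count table holds 41 of them among 37411 gene rows, with 13 in the MAPK tier, 7 in the MAP2K tier, 16 in the MAP3K tier and 5 in the MAP4K tier. Of these, 39 had enough counts to be tested, and Mapk13 and Map4k1 did not.

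Lysates came from the hippocampus of adult mice aged 7 to 9 weeks, of a strain and sex that the sources used here do not name. RNA was recovered with a Kinesin antibody that precipitates KIF5C (KIF5C libraries) or with a mouse IgG control antibody (IgG libraries). Each precipitation used the hippocampi of 2 mice, and several precipitations were pooled, giving 2 libraries per antibody. The sources do not say whether both libraries of an antibody came from different mice, so each p-value covers the variation between the libraries at hand, and that may be technical. No input library was among the samples analysed, so the comparison asks which mRNAs are richer with KIF5C than with IgG, and it sets 2 precipitates side by side, not a precipitate and the tissue. In such bulk samples, fewer cells of a type and less RNA per cell cannot be told apart.

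The libraries held 15172432 and 14623843 counts with the KIF5C antibody, against 12543510 and 11059266 with IgG. The mitochondrial 16S rRNA mt-Rnr2 took 31.9% and 32.2% of the counts in the libraries numbered 2 of KIF5C and IgG, and 11.3% and 7.36% in those numbered 1. The hippocampal field markers Prox1, Wfs1, Neurod2, Zbtb20 and Cpne4 were present in every library, and so were the neuronal markers. The 5 neuronal markers summed to 3640 and 3230 CPM (counts scaled to the size of the library and by TMM) with KIF5C, against 2700 and 2750 with IgG, with no marker at 0. The 5 oligodendrocyte markers summed to 1450 and 1570 CPM with KIF5C and 1780 and 1760 with IgG. Of these 5 markers, 2 had a positive log2 fold change, in a range from -0.82 to 0.64. The 4 choroid plexus markers summed to 167 and 127 CPM with KIF5C and 432 and 232 with IgG. Of these 4 markers, 1 had a positive log2 fold change, in a range from -1.38 to 0.3. The sums of the astrocyte, microglia and endothelium markers overlapped between antibodies. Those of the hippocampal field and inhibitory interneuron markers were higher in both KIF5C libraries than in either IgG library. Log2 fold changes ranged from -0.05 to 0.81 for the field markers (4 of 5 positive). For the interneuron markers they ranged from -0.18 to 0.7 (3 of 4 positive). The part of these cell types in the values of the kinases was not tested. Kif5c mRNA itself measured 782 and 639 CPM with KIF5C and 566 and 663 with IgG, and these overlapped.

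MAP kinase cascades pass a signal down a chain of protein kinases. A MAP4K can activate a MAP3K, a MAP3K phosphorylates a MAP2K, and a MAP2K phosphorylates a MAPK on a threonine and a tyrosine of its activation loop. The MAPKs form families with different partners. ERK kinases respond mainly to growth factors and synaptic activity, and JNK and p38 kinases respond mainly to stress and cytokines. In neurons these cascades act in synaptic plasticity, axon growth and the response to axon injury. JNK modules are carried along microtubules on kinesin-1 through JIP scaffold proteins.

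The activation loop codons of the ERK, JNK and p38 families differ, and they are shown for the MAPKs whose values are compared below. Each line gives 45 coding bases of the mRNA strand, 5′ to 3′, from a GENCODE mouse release 21 transcript (GRCm38), and the capitals mark the codons of the phosphorylated threonine, the residue after it and the tyrosine.
Mapk3: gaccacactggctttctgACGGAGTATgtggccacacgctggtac
Mapk7: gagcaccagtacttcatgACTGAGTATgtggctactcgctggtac
Mapk8: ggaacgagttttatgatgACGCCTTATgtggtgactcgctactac
Mapk9: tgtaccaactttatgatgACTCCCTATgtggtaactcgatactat
Mapk10: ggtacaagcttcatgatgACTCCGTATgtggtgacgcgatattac
Mapk11: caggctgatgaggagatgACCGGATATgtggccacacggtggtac
Mapk14: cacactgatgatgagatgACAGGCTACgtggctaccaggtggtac
Mapk15: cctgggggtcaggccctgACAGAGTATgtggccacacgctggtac
The middle codon is GAG in Mapk3 and Mapk7 (ERK and ERK5 kinases), and also in the atypical Mapk15. It begins with CC in Mapk8, Mapk9 and Mapk10 (JNK kinases) and with GG in Mapk11 and Mapk14 (p38 kinases).

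The stretches were found by searching the longest coding sequence of each gene, in frame and on its own strand, for GANTTNGGN and, within the next 40 codons, a run made of an ACN codon, any codon, a TAN codon and a GTN codon. Both were present in 11 of 13 MAPK members and in none of the other 28 members, and in 33 of 21605 protein-coding genes (0.153%). Mapk4 and Mapk6, the atypical kinases ERK4 and ERK3, had no match. Of the stretches of 31 bases in Mapk3, Mapk8, Mapk9 and Mapk14, 0 recurred in the longest transcript of another member. The highest share of such stretches was 1.43%, in Map2k2, and these were shared with Map2k1.

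No member passed an adjusted p of 0.05 in edgeR's quasi-likelihood test over all 14357 genes tested, in which 585 genes (4.07%) passed, 478 of them (3.33%) higher and 107 (0.745%) lower in the KIF5C precipitate. When library totals replaced the TMM scaling, 1 gene was higher and 4 were lower. The smallest adjusted p of a member was 0.0899. At an unadjusted p under 0.05, 5 of 39 members were higher and 2 were lower, or 12.8% and 5.13%, against 12.4% and 9.06% of all genes tested. The share of members on the higher side at that level was near that of all genes. DESeq2 called none of the 33 members that it gave an adjusted p, and 746 of the 11011 genes with one (6.78%). In the authors' deposited table, none of the 33 members that have an adjusted p was under 0.05, with a lowest value of 0.0765. Of the 10999 genes with an adjusted p there, 759 (6.9%) were.

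The fold changes of the members leaned to the KIF5C side without single calls. Of the 39 members, 27 (69.2%) had a positive log2 fold change of KIF5C over IgG, against 47.6% of all genes tested. Their median was 0.19, against -0.03 for all genes. Both KIF5C libraries lay above both IgG libraries in 18 members (46.2%), against 26.4% of all genes, and below them in 4 members (10.3%), against 26.1%. Within the libraries numbered 1 the median log2 ratio of KIF5C to IgG over the members was 0.15, and within those numbered 2 it was 0.23, against -0.02 and 0.01 for all genes. The members together took 0.318% and 0.218% of the counts of the KIF5C libraries, and 0.281% and 0.157% of those of the IgG libraries. These shares overlapped between antibodies. All protein-coding genes together took 75.1% and 49% of the counts with KIF5C, and 69.4% and 38.4% with IgG.

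**Figure D1:**
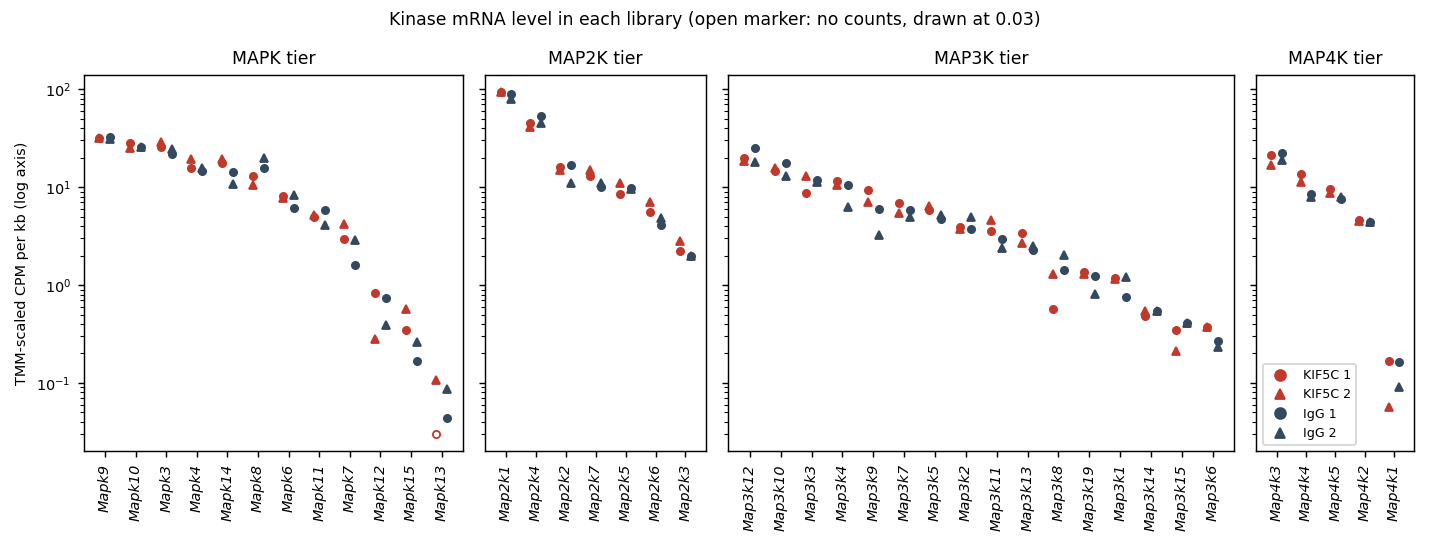
Level of the members described here in each library, as TMM-scaled CPM per kilobase of the longest annotated transcript on a log axis, by tier and in order of mean level; red is KIF5C and dark blue is IgG, and circles and triangles are libraries 1 and 2. Map2k1 stood highest of the genes drawn, and Mapk13 had no counts in KIF5C 1 (open circle, drawn at 0.03).

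Per length, the mRNA levels of the members described here spanned a wide range. Map2k1, which encodes MEK1, averaged 89.2 CPM per kb over the 4 libraries. The next were Map2k4 at 46.5, Mapk9 at 31.7, Mapk10 at 26.1 and Mapk3, which encodes ERK1, at 25.3 CPM per kb. The per-library levels of Mapk10 (25.0 to 28.3) and Mapk3 (21.9 to 29.2) overlapped, so their order is not set by these data. The MAP3K and MAP4K tiers reached lower levels, with Map3k12 at 20.4 and Map4k3 at 19.9 CPM per kb as their highest members. At the other end stood Mapk13 at 0.0589, Map4k1 at 0.12, Map3k6 at 0.311, Mapk15 at 0.335 and Map3k15 at 0.345 CPM per kb. These levels divide by the longest annotated transcript, which need not be the isoform in the hippocampus.

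In the MAPK tier, 12 of 13 genes were tested, 9 had a positive log2 fold change and the median was 0.17. Mapk3 (chromosome 7, 126759601 to 126765819, in GRCm38 as for every gene here) stood at 46.1 and 52.6 CPM with KIF5C and 39.4 and 43.8 CPM with IgG. Its log2 fold change was 0.25 (SE 0.21, adjusted p = 0.532 in edgeR).

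Mapk7, which encodes the large kinase ERK5 (chromosome 11, 61488812 to 61494406), had 12.6 and 17.6 CPM with KIF5C, against 6.79 and 12.2 CPM with IgG. Its KIF5C 1 and IgG 2 libraries lay close together. The log2 fold change was 0.70 (SE 0.29, adjusted p = 0.168 in edgeR), with 0.30 when IgG replicate 1 was left out and 1.16 when IgG replicate 2 was.

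The 3 JNK genes had unlike values, and none passed. Mapk8, which encodes JNK1 (chromosome 14, 33377898 to 33447158), measured 75.3 and 60.9 CPM with KIF5C, against 90.8 and 115 CPM with IgG. It was lower in both KIF5C libraries than in either IgG library, at -0.60 on the log2 scale (SE 0.23, adjusted p = 0.14 in edgeR). Within the libraries numbered 1 the log2 ratio was -0.27, and within those numbered 2 it was -0.92. Mapk9 (JNK2) had 149 and 148 CPM with KIF5C and 152 and 145 CPM with IgG, and Mapk10, which encodes the neuronal kinase JNK3, had 204 and 180 CPM with KIF5C and 184 and 184 CPM with IgG. The values of both overlapped between antibodies, with log2 fold changes of -0.00 (SE 0.22) and 0.06 (SE 0.23).

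As a share of the counts of the 3 JNK genes, which does not depend on the scaling of the libraries, Mapk8 made 17.6% and 15.7% with KIF5C and 21.3% and 25.9% with IgG. Mapk10 made 47.5% and 46.3% with KIF5C and 43.1% and 41.4% with IgG. An exact two-sided permutation test of either share gave p = 0.333, which is the smallest value this test can give with 2 libraries against 2, so the test cannot reach 0.05 for a single ratio. These ratios, and those below, were chosen after the values were seen. The GC content of the genes differs (40.1% for Mapk8, 45.8% for Mapk9, 45.6% for Mapk10). After the GC content and length correction the log2 fold changes were -0.30, 0.04 and 0.04 in the same order (SE 0.17 each). Mapk8 passed the threshold without IgG replicate 1 (log2 fold change -0.76, adjusted p = 0.0381 in edgeR), while its value was -0.40 without IgG replicate 2.

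Among the p38 genes, Mapk14, which encodes p38 alpha (chromosome 17, 28691329 to 28748406), had 63.4 and 69.7 CPM with KIF5C, against 51.4 and 38.5 CPM with IgG. The groups did not overlap, and the log2 fold change was 0.56 (SE 0.22, adjusted p = 0.154 in edgeR). It passed without IgG replicate 1 (0.78, adjusted p = 0.0352 in edgeR), and its value was 0.39 without IgG replicate 2. Mapk11, the gene of p38 beta, stood at 12.9 and 13.6 CPM with KIF5C and 15.2 and 10.8 CPM with IgG, so its libraries overlapped. The counts of Mapk14 were 4.91 and 5.13 times those of Mapk11 with KIF5C, and 3.37 and 3.58 times with IgG. Mapk12, the gene of p38 gamma, had between 0.544 and 1.6 CPM in the 4 libraries, and Mapk13, the gene of p38 delta, had 0 and 4 counts with KIF5C and 2 and 2 counts with IgG.

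The libraries of Mapk4 and Mapk6 overlapped between antibodies, and Mapk15 was scarce. Mapk4 measured 75 and 94.0 CPM with KIF5C and 70.1 and 76.2 CPM with IgG, and Mapk6 measured 33.1 and 31.5 CPM with KIF5C and 25.3 and 34.2 CPM with IgG. Mapk15 had the highest log2 fold change of all members, 1.12 (SE 0.70, adjusted p = 0.37 in edgeR), but it rested on 13 and 14 counts with KIF5C and 5 and 4 counts with IgG.

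**Figure D2:**
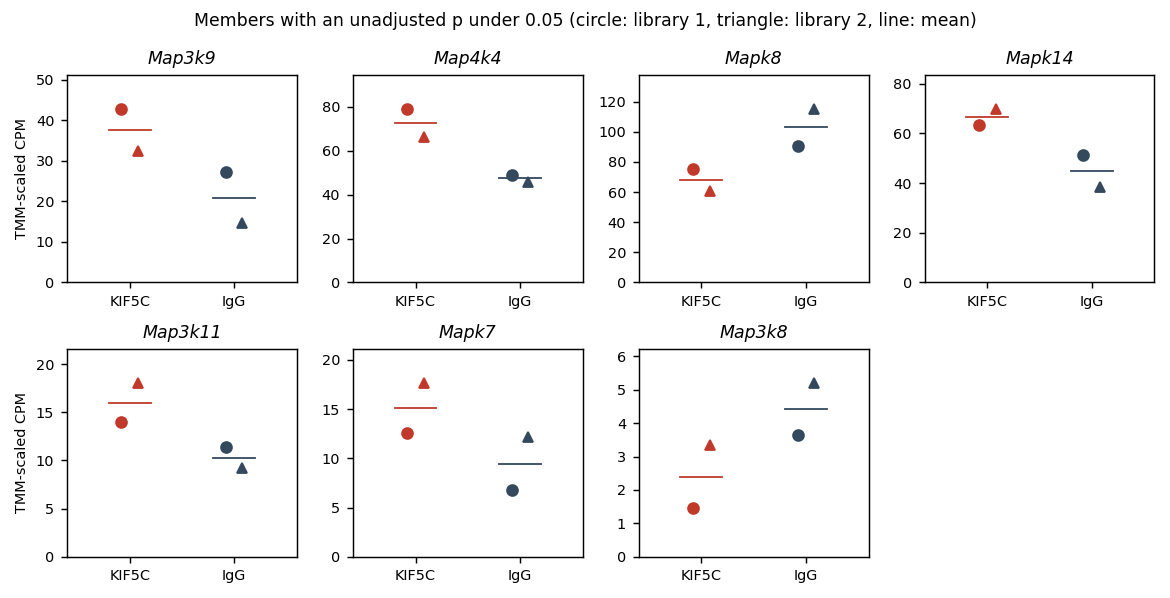
TMM-scaled CPM in each library of the 7 members with an unadjusted p under 0.05; circles and triangles are libraries 1 and 2, lines are group means, and each axis starts at 0. KIF5C libraries lie above IgG libraries in Map3k9, Map4k4, Mapk14, Map3k11 and Mapk7, and below them in Mapk8 and Map3k8.

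In the MAP2K tier all 7 genes were tested, 6 had a positive log2 fold change and the median was 0.16. Members of this tier lay in a narrow range, from -0.20 to 0.50, and 0 had an unadjusted p under 0.05. Map2k6 and Map2k3 encode the activators of p38. Map2k6 (chromosome 11, 110399122 to 110525522) had 11.6 and 14.6 CPM with KIF5C and 8.58 and 10.0 CPM with IgG (log2 fold change 0.50, SE 0.25, adjusted p = 0.257 in edgeR). Map2k3 (chromosome 11, 60932033 to 60952811) had 4.85 and 6.21 CPM with KIF5C and 4.35 and 4.30 CPM with IgG (log2 fold change 0.34, SE 0.30, adjusted p = 0.548 in edgeR). In both genes the KIF5C libraries lay above the IgG libraries.

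Map2k7 and Map2k4 both encode activators of JNK, and Map2k4 also acts on p38. Map2k7 (chromosome 8, 4238740 to 4247897) measured 46.1 and 52.8 CPM with KIF5C, against 35.2 and 39.0 CPM with IgG. Its groups did not overlap (log2 fold change 0.41, SE 0.21, adjusted p = 0.273 in edgeR). A second annotated gene on the same strand, Gm49320, covers 35.2% of its exonic bases, so its counts are uncertain. Map2k4 (chromosome 11, 65688243 to 65788297) measured 169 and 152 CPM with KIF5C, against 197 and 169 CPM with IgG (log2 fold change -0.20, SE 0.23, adjusted p = 0.657 in edgeR). The ratio of Map2k7 to Map2k4 counts, chosen after the values were seen, was 0.273 and 0.348 with KIF5C and 0.178 and 0.231 with IgG. These did not overlap, but the exact two-sided permutation p of 0.333 is the smallest possible, so the test cannot decide. The ratio carries the uncertain counts of Map2k7, and the GC content of the genes differs (56% for Map2k7, 45% for Map2k4). After the GC content and length correction the log2 fold changes were 0.15 (SE 0.19) for Map2k7 and -0.1 (SE 0.19) for Map2k4.

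The genes of the ERK activators had small log2 fold changes. Map2k1 (chromosome 9, 64185770 to 64253631) had 230 and 228 CPM with KIF5C and 215 and 195 CPM with IgG (log2 fold change 0.16, SE 0.23, adjusted p = 0.736 in edgeR). Map2k2, which encodes MEK2, had 38.3 and 35.7 CPM with KIF5C and 41.0 and 26.3 CPM with IgG. Map2k5, which encodes the activator of ERK5, had 19.8 and 25.2 CPM with KIF5C and 22.4 and 21.9 CPM with IgG, and both genes overlapped between antibodies.

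The MAP3K tier had log2 fold changes from -0.90 to 0.82 over 16 genes, 9 of them positive, and a median of 0.23. The mixed-lineage kinases, which feed the JNK pathway, held its 2 highest values and others near 0. Map3k9, which encodes MLK1 (chromosome 12, 81721010 to 81781175), had 42.7 and 32.4 CPM with KIF5C, against 27.2 and 14.7 CPM with IgG. KIF5C 2 and IgG 1 lay close together. The log2 fold change was 0.82 (SE 0.27), and its adjusted p of 0.0899 in edgeR was the smallest of all members. It passed without IgG replicate 1 (1.35, adjusted p = 0.0023 in edgeR), and its value was 0.48 without IgG replicate 2.

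Map3k11, which encodes MLK3 (chromosome 19, 5688742 to 5702865), had 14.0 and 18 CPM with KIF5C, against 11.4 and 9.24 CPM with IgG. The groups did not overlap, at 0.61 on the log2 scale (SE 0.24, adjusted p = 0.155 in edgeR). Map3k10, which encodes MLK2, had 53.9 and 57.9 CPM with KIF5C and 64.9 and 47.3 CPM with IgG, and these overlapped (log2 fold change -0.01, SE 0.22). An antisense gene covers 9.79% of the exonic bases of Map3k11, and Ttc9b on the opposite strand covers 14.8% of those of Map3k10. The sources used here do not state whether the counting used strand.

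Map3k12 and Map3k13 encode DLK and LZK, kinases that signal axon damage to the nucleus. Map3k12 (chromosome 15, 102497646 to 102517064), the most abundant MAP3K mRNA per length, had 104 and 95.6 CPM with KIF5C and 130 and 93.4 CPM with IgG, and its libraries overlapped (log2 fold change -0.17, SE 0.23, adjusted p = 0.713 in edgeR). Pcbp2, on the opposite strand, covers 17.5% of its exonic bases. Map3k13 had 29.4 and 23.2 CPM with KIF5C and 19.4 and 21.6 CPM with IgG, without overlap (log2 fold change 0.36, SE 0.23, adjusted p = 0.372 in edgeR).

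Map3k8, which encodes TPL2, an activator of MEK in inflammatory signalling, had the lowest log2 fold change of the members. Its levels were 1.45 and 3.34 CPM with KIF5C, against 3.65 and 5.19 CPM with IgG (chromosome 18, 4331327 to 4353015). The log2 value of -0.90 (SE 0.41, adjusted p = 0.215 in edgeR) rested on 28 and 43 counts with KIF5C and 57 and 41 counts with IgG. Leaving out KIF5C replicate 1 gave -0.37, and leaving out KIF5C replicate 2 gave -1.57.

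Of the other MAP3K genes 0 passed. Map3k5, which encodes the oxidative stress kinase ASK1, had 31.8 and 35.3 CPM with KIF5C and 25.6 and 28.4 CPM with IgG (log2 fold change 0.31, SE 0.22). Its relatives were scarce and lay on opposite sides, without overlap between antibodies. Map3k6 had 1.6 and 1.63 CPM with KIF5C and 1.15 and 1.01 CPM with IgG (log2 fold change 0.55, SE 0.48, adjusted p = 0.538 in edgeR). Map3k15 had 1.5 and 0.932 CPM with KIF5C and 1.79 and 1.77 CPM with IgG (log2 fold change -0.52, SE 0.47, adjusted p = 0.552 in edgeR). Pdha1, on the opposite strand, covers 13.9% of the exonic bases of Map3k15. Map3k4, an activator of the p38 and JNK pathways, had 63.3 and 56.5 CPM with KIF5C and 57.3 and 34.0 CPM with IgG, which overlapped. Its log2 fold change was 0.38 on all libraries, 0.81 without IgG replicate 1 and 0.08 without IgG replicate 2. After the GC content and length correction it was 0.03. Map3k7, which encodes TAK1, and the MEKK genes Map3k1, Map3k2 and Map3k3 had log2 fold changes between -0.18 and 0.28 and overlapped between antibodies. Map3k14 (-0.07) also overlapped, and Map3k19 (0.35) did not.

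In the MAP4K tier 4 of 5 genes were tested, 3 had a positive log2 fold change and the median was 0.14. Map4k4 (chromosome 1, 39900913 to 40026310), which acts upstream of JNK, measured 78.9 and 66.1 CPM with KIF5C, against 49.1 and 45.7 CPM with IgG. Both KIF5C libraries lay above both IgG libraries, with a log2 fold change of 0.61 or 1.53-fold (SE 0.21, adjusted p = 0.113 in edgeR). Map4k3 (chromosome 17, 80580512 to 80728485), which acts in amino acid sensing, had 90.9 and 72.1 CPM with KIF5C and 93.7 and 80.2 CPM with IgG, and its libraries overlapped (log2 fold change -0.10, SE 0.22, adjusted p = 0.845 in edgeR). The counts of Map4k4 were 0.868 and 0.916 times those of Map4k3 with KIF5C and 0.524 and 0.569 times with IgG. The GC content of the genes differs (52.4% for Map4k4, 44.8% for Map4k3). After the GC content and length correction the log2 fold changes were 0.30 (SE 0.17) for Map4k4 and -0.01 (SE 0.19) for Map4k3.

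Map4k5 (chromosome 12, 69803750 to 69893200) had 42.6 and 39.4 CPM with KIF5C and 34.4 and 35.4 CPM with IgG (log2 fold change 0.23, SE 0.21, adjusted p = 0.56 in edgeR). Map4k2 had 23.7 and 23.1 CPM with KIF5C and 22.4 and 22.7 CPM with IgG. Map4k1, which encodes the blood cell kinase HPK1, had 9 and 2 counts with KIF5C and 7 and 2 counts with IgG.

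**Figure D3:**
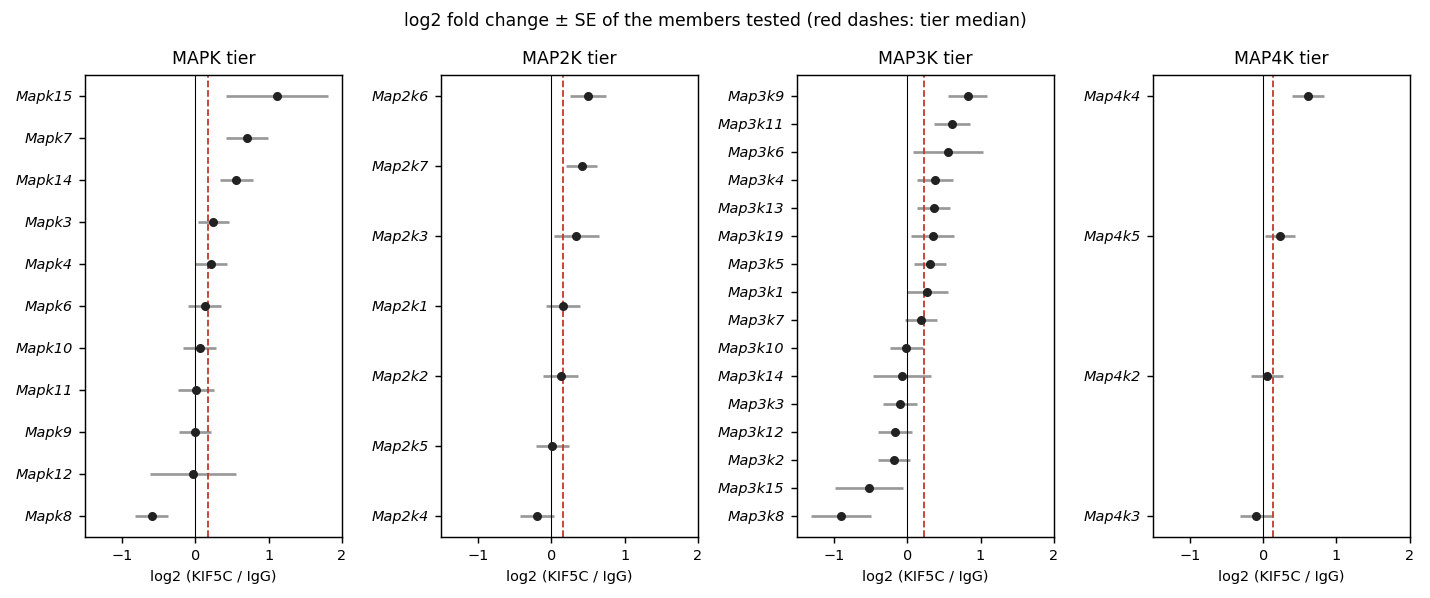
Log2 fold change of KIF5C over IgG with its standard error for the members tested and described here, by tier; the solid line marks 0 and the red dashes the tier median (0.17, 0.16, 0.23 and 0.14). The tiers overlap, and none of these members passed the adjusted threshold in edgeR.

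Set side by side, the 4 tiers had medians of 0.17 (MAPK), 0.16 (MAP2K), 0.23 (MAP3K) and 0.14 (MAP4K) over 12, 7, 16 and 4 genes. Positive values made 75%, 85.7%, 56.2% and 75% of them in the same order. After the GC content and length correction the medians were 0.12 (MAPK), 0.15 (MAP2K), 0.06 (MAP3K) and 0.14 (MAP4K), so the order of the tiers is not set by these data. With IgG replicate 1 left out the median of the MAP2K tier was 0.34, and with IgG replicate 2 left out it was 0.10. The MAP3K median was 0.09 without IgG replicate 2, and the MAPK median was 0.31.

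The fold changes moved with GC content. The longest transcripts of the members had a median GC content of 52.4%, against 49.7% for all genes tested. Across the 39 members, which share the 4 libraries, the log2 fold change correlated with GC content at r = 0.48 (Spearman 0.42), with length at -0.07 and with mean log2 CPM at -0.10. Across the 13943 genes tested that have a GC value, the correlation was 0.31 with GC content and 0.22 with log2 length. The median length was 4246 bases for the members and 3453 for all genes tested. Mapk8, with a GC content of 40.1%, and Map3k8, with 45.3%, lay low, while Map3k9 (58.8%), Map3k11 (61.3%) and Mapk7 (57.3%) lay high. Map3k10, with 64.9%, and Map3k14, with 58.7%, did not follow this order, at -0.01 and -0.07. With GC content and length corrected for in edgeR, the median of the members was 0.06 against -0.02 for all genes, and 25 of 39 (64.1%) were positive against 48.1%. In that fit Map3k9 was at 0.40, Map3k11 at 0.20, Mapk7 at 0.31, Map4k4 at 0.30 and Mapk8 at -0.30, all smaller in size than before. Other values grew in size, with Map2k6 going from 0.50 to 0.63, Map3k10 from -0.01 to -0.48 and Map3k14 from -0.07 to -0.46. Of the members, 0 passed in that fit.

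**Figure D4:**
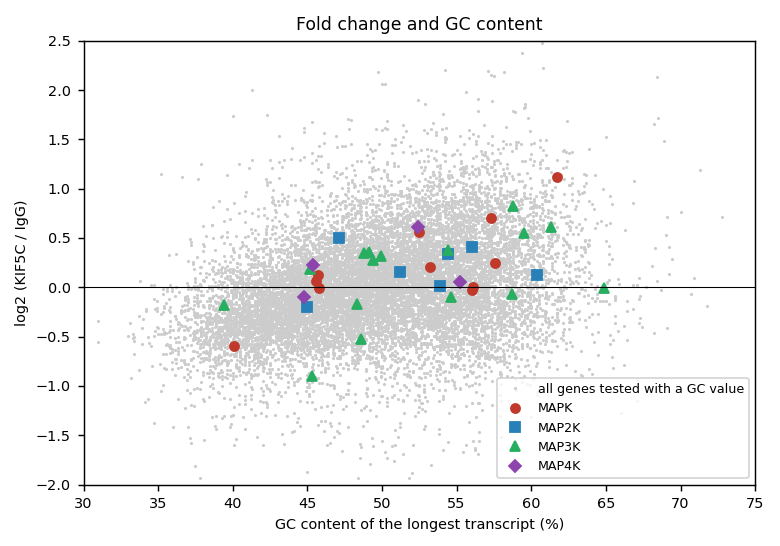
Log2 fold change of KIF5C over IgG against the GC content of the longest transcript, with all genes tested in grey and the members described here in colour by tier; genes beyond the axis limits are not drawn. Members with a high GC content lie higher on the plot (r = 0.48 over 39 members), as do genes in general (r = 0.31).

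Other genes of the pathway were taken from 10 lists of 114 genes, of which 107 were tested. Of these, 2 rose, 0 fell and 105 did not pass, beside 3.33% higher and 0.745% lower among all genes tested, and their median was 0.08. Upstream of the kinases, 0 of 6 Ras GTPase genes passed (median -0.24). Rras2 had 22.3 and 29.9 CPM with KIF5C and 37.3 and 41.4 CPM with IgG (log2 fold change -0.59, SE 0.23, adjusted p = 0.141 in edgeR). Of the RAF, KSR and MOS genes, 5 were tested and 0 passed (median -0.06). The scaffold kinase gene Ksr1 had the smallest p of these, at 0.72 (SE 0.25, adjusted p = 0.114 in edgeR). It passed without IgG replicate 1 (1.14, adjusted p = 0.00716), and it was at 0.41 without IgG replicate 2 and at 0.26 after the GC content and length correction. Of 14 Ras exchange factor and adaptor genes 0 passed (median 0.15), with the adaptor gene Gab1 at 0.75 (SE 0.22, adjusted p = 0.0654 in edgeR).

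Among 13 genes of Ras and RAF inhibitors, Spred3 rose and 12 did not pass (median 0.08). SPRED proteins restrain the activation of RAF by Ras. Spred3 measured 30.8 and 34.2 CPM with KIF5C, against 16.6 and 11.9 CPM with IgG, with no overlap. Its log2 fold change was 1.17 (SE 0.23, adjusted p = 0.0136 in edgeR). It passed with each library left out in turn and after the GC content and length correction (0.89, adjusted p = 0.0236), but not with library totals (1.25, adjusted p = 1). Of 12 MAPK phosphatase genes tested 0 passed (median 0.19), with Dusp5, whose product dephosphorylates ERK, at 0.68 (SE 0.24, adjusted p = 0.115 in edgeR). Dusp5 was at 0.91 without IgG replicate 1, at 0.51 without IgG replicate 2 and at 0.58 after the GC content and length correction.

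Of 15 scaffold genes tested, Mapk8ip3 rose and 14 did not pass (median 0.32). Mapk8ip3 encodes JIP3, which ties JNK modules to kinesin-1, and had 348 and 227 CPM with KIF5C, against 160 and 119 CPM with IgG. Its log2 fold change was 1.04 (SE 0.27, adjusted p = 0.0377 in edgeR). It missed the threshold without KIF5C replicate 1 (0.71, adjusted p = 0.426), without IgG replicate 2 (0.86, adjusted p = 0.161), with library totals (1.18, adjusted p = 1) and after the GC content and length correction (0.46, adjusted p = 0.206). The other JIP genes Mapk8ip1 (0.04, SE 0.25), Mapk8ip2 (0.38, SE 0.24) and Spag9 (-0.10, SE 0.26), which encodes JIP4, did not pass.

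Downstream, 0 of 10 tested genes of kinases activated by MAPKs passed (median -0.24), with Mknk1 at -0.57 (SE 0.24, adjusted p = 0.187 in edgeR). Of 15 genes of transcription factor substrates 0 passed (median 0.11), with Elk4 at 0.85 (SE 0.25, adjusted p = 0.0651 in edgeR). Elk4 passed without KIF5C replicate 2 (1.11, adjusted p just under 0.05) and was at 0.55 without KIF5C replicate 1. Among 9 kinase genes under other names that were grouped here with these tiers, though not all belong to them, 0 passed (median 0.12). The MAP4K relative Mink1 measured 302 and 250 CPM with KIF5C, against 180 and 117 CPM with IgG, without overlap. Its log2 fold change was 0.89 (SE 0.26, adjusted p = 0.0592 in edgeR), and its adjusted p ranged from 0.000482 to 1 over the alternatives. It passed in DESeq2 (adjusted p = 0.0104) and without IgG replicate 1 (1.23, adjusted p = 0.00774 in edgeR). After the GC content and length correction it was at 0.44 (adjusted p = 0.207), and without KIF5C replicate 1 and IgG replicate 2 in turn at 0.76 and 0.64 (adjusted p = 0.382 and 0.225). Of 8 tested genes of MAP3K partners 0 passed (median 0.07), with Gadd45b at -0.47 (SE 0.26, adjusted p = 0.304 in edgeR).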

How the data were processed

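RNA precipitated with a KIF5C or an IgG antibody was measured in 2 libraries each. The deposited count table holds whole-number counts per gene, made by the authors and not normalized; Salmon, DESeq and GRCm38 are named in the submitters' processing notes, while the sources used here give no versions, annotation or strandedness. Salmon divides reads between similar transcripts. The authors' deposited comparison gives log2 fold changes, taken as IgG over KIF5C, with adjusted p-values. Columns were assigned through the sample descriptions. In 27 rows the gene name had become a date (0.121% to 0.252% of counts), and these stayed in the test without a name.

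Genes were tested by quasi-likelihood in edgeR 4.0.16 (R 4.3.3) on all genes, with TMM scaling, filterByExpr (minimum count 10, minimum total 15), group as the only term and Benjamini-Hochberg adjustment at 0.05. The standard error (SE) is the size of the log2 fold change divided by the square root of F. The fit was tested on simulated data. Symbols, coordinates, lengths and GC content come from GENCODE mouse release 21, which matched 36148 of 37411 rows. Log2 ratios of single libraries used CPM plus 0.1. Genes given in full were the 3 smallest p-values and the most abundant member of each tier, and from each other list the genes called or the smallest p. Other genes are named for their role, and some were chosen after their values were seen. Members and lists were chosen with earlier results of these data known. Alternatives were DESeq2 1.42.0, other scaling and filters, a replicate block, a loess correction for GC content and length, and leaving out each library. With 1 library left out, the lone library is assumed to vary like the other group. The values of 1 member are not reported here, and counts and medians over the members include it.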

Additional observations from a re-analysis of the deposited data

How the results depend on the processing

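No member was called with DESeq2, DESeq2's size factors, library totals, a mean count of at least 50 (33 members left) or the GC content and length correction. Without a low-count filter 1 member was higher. With 1 library left out, 0 to 3 members were higher and 0 to 1 lower. For all genes the counts higher and lower were 902 and 261 of 22204 without a filter, and 557 and 149 of 11416 with the stricter count filter. With library totals the median of all genes shifted to 0.11 and that of the members to 0.33, and the counts were 1 and 4 of 14357. They ranged from 111 to 978 higher and from 25 to 586 lower with 1 library left out. The same-numbered libraries deviated together at r = 0.14, and with 2 pairs this value cannot decide whether they are paired. By mt-Rnr2 they were alike, with 11.3% and 7.36% of counts in those numbered 1 and 31.9% and 32.2% in those numbered 2. Protein-coding genes took 75.1% and 69.4% of counts in those numbered 1, and 49% and 38.4% in those numbered 2. The reason was not tested. The fit with a replicate block called 1162 of 14357 genes higher and 518 lower. Of the 39 members it called 2 higher (Map3k9 and Map4k4) and 1 lower (Mapk8). With the block and the GC content and length correction together, 978 of 14357 genes were higher and 467 lower. In that fit 1 of 39 members was higher. Map4k3 turned to 0.05 with library totals and lay between -0.26 and 0.08 with 1 library left out, and Map3k12 between -0.37 and 0.09. The cause of these shifts was not tested. All 4 tier medians stayed positive under the 12 alternatives. Depth limited Mapk12, Mapk15, Map3k6, Map3k14 and Map3k15, which had under 50 counts in every library.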
